A study of Rattus norvegicus with 9 samples.

Results

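UDP-glucuronosyltransferases (UGTs) are enzymes of the endoplasmic reticulum that join glucuronic acid, taken from UDP-glucuronic acid, to bilirubin, steroids, bile acids and many drugs, so that these can leave the liver in bile or urine. The Ugt1a enzymes come from a single locus in which a separate opening exon for each enzyme is spliced to exons that all of them share. The Ugt2b enzymes come from separate genes that lie side by side. All probe sets whose annotated symbol starts with Ugt1a, Ugt2a or Ugt2b were taken, 11 of 31042 on the array. Of these, 9 carry a single Ugt symbol, and 2 carry 8 Ugt1a symbols together (Ugt1a1, Ugt1a2, Ugt1a3, Ugt1a5, Ugt1a6, Ugt1a7c, Ugt1a8 and Ugt1a9). No probe set read Ugt1a1 or Ugt1a6 alone. The 2 shared probe sets therefore give the Ugt1a locus as a whole, and they are kept apart from the 9 others below.

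RNA of 9 livers of male Goto-Kakizaki (GK) rats, an inbred strain with spontaneous type 2 diabetes, was measured on Affymetrix arrays, 1 array a rat. Chronic unpredicted mild stress (CUMS) was given to 6 rats for 8 weeks, and the labels divide them by symptom into 3 with Major Depression (CUMS 1, 2 and 3) and 3 with Mild Depression (CUMS 4, 5 and 6). The 3 rats labelled undepression (control 1, 2 and 3) had no stress. Per the study's methods, all rats were diabetic before the stress began and all received the glucose-lowering drug repaglinide by gavage. The CUMS rats lived alone in their cages, so stress and single housing cannot be told apart, and how the symptom labels were set is not given in the sources used here. Signals are MAS 5.0 values on a linear scale, in which the arrays share a common trimmed mean. In whole liver, fewer cells of a type and less RNA per cell cannot be told apart.

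The arrays had median signals of 107 to 133. Hepatocyte markers were high in every liver, with 6 of 7 listed genes measured and a summed signal of 113801 to 138057 in major depression, 138051 to 153091 in mild depression and 115941 to 140096 in control. Control rat 3 stood apart. Its median correlation with the other arrays was 0.951, against 0.965 to 0.972 for the other 8. The 10 stellate cell and fibroblast markers summed to 32618 in it, against 7009 and 7154 in the other controls, 3782 to 4482 in major depression and 5136 to 6859 in mild depression. Its bile duct marker sum was 9007, with 647.6 to 1119 in major depression, 845.1 to 1040 in mild depression and 970.0 and 1062 in the other controls. All 10 fibroblast markers and all 4 bile duct markers measured had a lower mean log2 signal in both CUMS groups than in the 3 controls. These counts include control rat 3, on which some of them rest, and were not made without it. Lum, a faint fibroblast marker, read 12.3, 157 and 49.0 in mild depression, and 38.8, 23.4 and 2554 in controls 1, 2 and 3. Des read 162, 193 and 189 in mild depression, and 166, 143 and 404 in those controls. Krt7, a bile duct marker, read under 10 in every rat. The 5 macrophage markers measured summed to 10116 to 15166 in major depression, 10211 to 14849 in mild depression and 14384 to 17437 in control, with 5 and 4 of them lower in the 2 CUMS groups. Endothelial markers did not share this direction, with 1 of 4 lower in each CUMS group. They summed to 10663 to 11324 in major depression, 10750 to 12311 in mild depression and 9525 to 12433 in control. The part of these cells in the Ugt differences was not tested, and the differences without control rat 3 are given with the results.

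The Ugt promoters show how the locus and the gene cluster differ. RefSeq (GRCr8) gave a window for 14 of the 16 member genes, 7 Ugt1a genes on chromosome 9 and 7 Ugt2b genes on chromosome 14. The 8 Ugt1a genes have 8 annotated starts and 1 common end. The 110 bases before the annotated start follow for 4 genes. Ugt2b15 and Ugt2b7 were chosen to show the letters that Ugt2b genes share, and Ugt2b1 and Ugt1a1 because the signals below turn on Ugt2b1 and the Ugt1a locus. In Ugt2b15 and Ugt2b7 the capitals mark a run of 25 bases found in both. In Ugt2b1 and Ugt1a1 they mark a match to the consensus of HNF1, a liver transcription factor known to act on Ugt promoters.
Ugt2b15, chr14:21122756-21122865, plus strand: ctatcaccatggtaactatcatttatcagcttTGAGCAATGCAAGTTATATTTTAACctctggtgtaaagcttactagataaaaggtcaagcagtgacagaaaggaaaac
Ugt2b7, chr14:21251425-21251534, plus strand: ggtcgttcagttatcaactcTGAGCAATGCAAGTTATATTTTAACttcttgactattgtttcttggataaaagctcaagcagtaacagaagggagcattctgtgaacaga
Ugt2b1, chr14:21378772-21378881, plus strand: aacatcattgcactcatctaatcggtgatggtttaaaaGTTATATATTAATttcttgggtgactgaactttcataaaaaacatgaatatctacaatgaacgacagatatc
Ugt1a1, chr9:96249033-96249142, plus strand: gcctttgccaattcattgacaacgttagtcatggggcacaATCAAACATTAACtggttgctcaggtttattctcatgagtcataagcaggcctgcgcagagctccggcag

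The 25-base run was shared by 4 Ugt2b promoters, those of Ugt2b, Ugt2b15, Ugt2b35 and Ugt2b7, where it began 74, 78, 87 and 90 bases before the start. It stood in 7 of 33469 windows of 250 bases in the whole table (0.0209%). The HNF1 consensus GTTAATNATTAAC, a palindrome, was searched with up to 3 mismatches and was found in 11 of 14 Ugt windows, 5 of 7 in Ugt1a genes and 6 of 7 in Ugt2b genes, against 7.74% of all windows. The matches in Ugt2b genes began 62 to 78 bases before the start, and in the 4 genes with the run they lay inside it. Its half-site GTTAAT, searched on both strands without mismatch and contained in the consensus, was in 4 of 7 Ugt1a windows and 0 of 7 Ugt2b windows, against 6.45% of all. GCGTG, the core bound by the Ah receptor, was in 4 of 7 Ugt1a windows (Ugt1a3, Ugt1a6, Ugt1a7c and Ugt1a8) and 1 of 7 Ugt2b windows (Ugt2b34l1), against 25.9% of all. A match describes letters only and was not tested for binding.

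**Figure D1:**
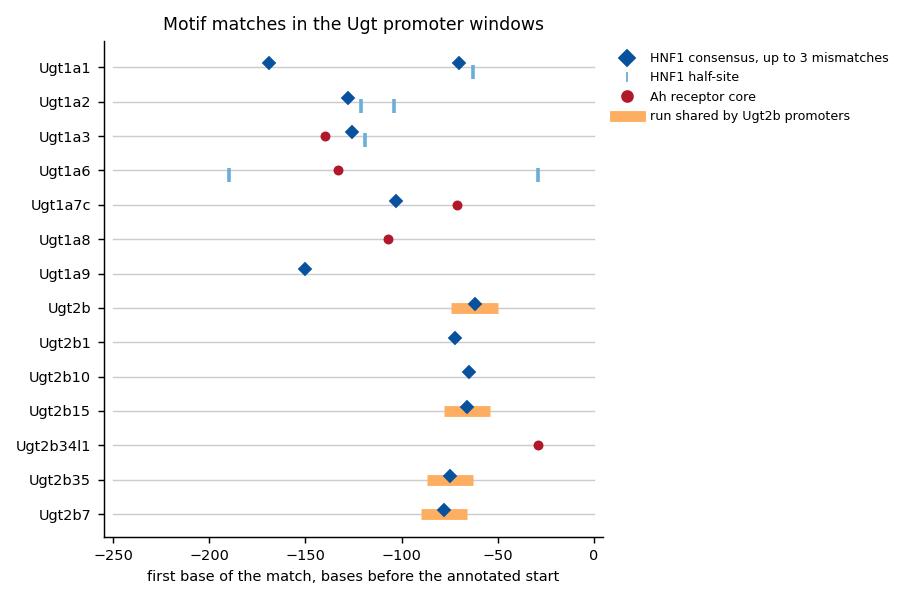
Positions of motif matches in the promoter windows of 14 Ugt genes, as bases before the annotated start (x axis), with 1 gene per line. Diamonds are HNF1 consensus matches, ticks HNF1 half-sites, circles the Ah receptor core and bars the 25-base run. In the 6 Ugt2b genes with a consensus match it began between 62 and 78 bases before the start, and the Ugt1a matches began between 70 and 169 bases before it.

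The Ugt1a locus gave higher signals in CUMS livers, on both shared probe sets. Probe set 1370613_s_at read 15513, 14361 and 13337 in major depression, 16603, 17144 and 19517 in mild depression, and 12051, 12778 and 10537 in control. All 6 CUMS rats lay above all 3 controls, and all 3 mild depression rats lay above all 3 major depression rats. Probe set 1387759_s_at read 14580, 13451 and 12802 in major depression, 13402, 15479 and 17738 in mild depression, and 10477, 10194 and 9452 in control. Again every CUMS rat lay above every control, but here the CUMS groups overlapped. The log2 difference from control was 0.29 (SE 0.11) for 1370613_s_at and 0.44 (SE 0.11) for 1387759_s_at in major depression. In mild depression it was 0.59 (SE 0.11) and 0.62 (SE 0.11), that is 1.51-fold and 1.54-fold (n = 3 rats a group). None passed limma's test over the 18625 probe sets kept (adjusted p = 0.722 and 0.570 in major depression, 0.373 for both in mild depression). Without control rat 3 the differences were 0.21 and 0.40 in major depression and 0.51 and 0.58 in mild depression.

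The pair followed each other closely over the 9 rats (Pearson r of log2 signal 0.95, a description of points that share their arrays). The ratio of 1387759_s_at to 1370613_s_at was 0.940, 0.937 and 0.960 in major depression, 0.807, 0.903 and 0.909 in mild depression, and 0.869, 0.798 and 0.897 in control. It was higher in each major depression rat than in any other rat. Because each of the 8 enzymes has its own opening exon, these signals do not say which of them, the bilirubin enzyme Ugt1a1 or the phenol enzyme Ugt1a6 among others, made up the difference.

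Ugt2b1, which in rats conjugates steroids and drugs such as morphine, had the highest ratio to control among the Ugt probe sets kept. It read 6904, 7288 and 8050 in major depression, 7579, 7844 and 10476 in mild depression, and 5384, 4832 and 3717 in control. All 6 CUMS rats lay above all 3 controls, and CUMS 6 lay above the rest. The means were 7414 ± 583 in major depression, 8633 ± 1601 in mild depression and 4644 ± 849 in control (SD, n = 3 each). The log2 difference was 0.69 (SE 0.16; 1.61-fold; adjusted p = 0.551 by limma) in major depression and 0.90 (SE 0.16; 1.86-fold; adjusted p = 0.373) in mild depression. Over all 6 CUMS rats it was 0.79 (SE 0.14; 1.73-fold; 95% interval 1.40-fold to 2.14-fold; adjusted p = 0.290). Control rat 3 had the lowest Ugt2b1 signal, and without it the differences were 0.54 in major depression, 0.74 in mild depression and 0.64 over all CUMS rats.

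**Figure D2:**
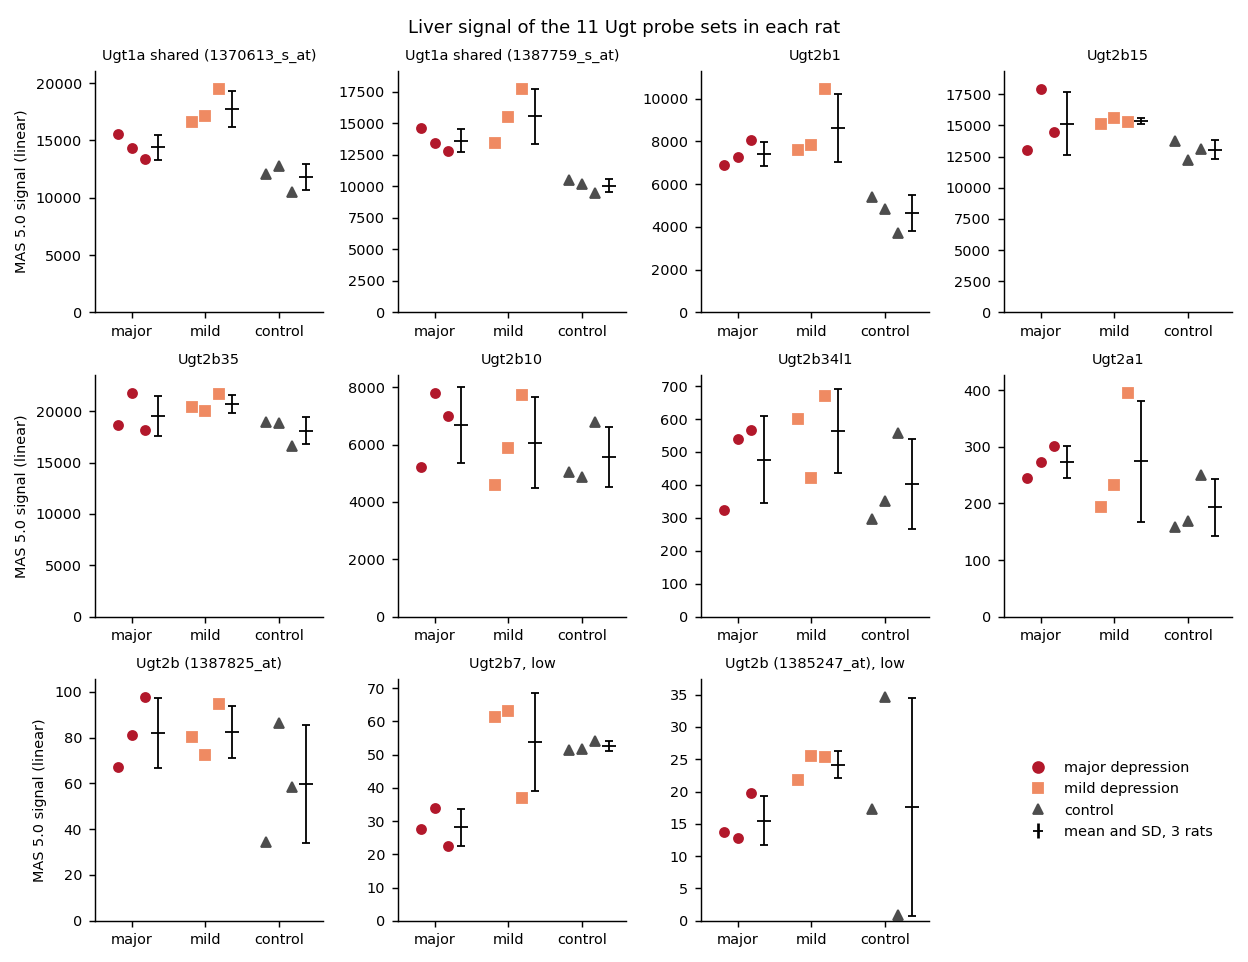
Linear MAS 5.0 signal (y axis, from 0) of each of the 11 Ugt probe sets in each rat, with major depression, mild depression and control from left to right and black bars for the mean and SD of 3 rats. Points of a group stand in the order of rat number. For Ugt2b1 the 6 CUMS rats sit between 6904 and 10476, above the controls at 3717 to 5384, and both Ugt1a panels show the same separation.

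Ugt2b15, whose human namesake conjugates androgens, differed less. It read 13018, 17962 and 14450 in major depression, 15131, 15591 and 15281 in mild depression, and 13780, 12246 and 13140 in control. Mild depression rats all lay above the controls, as did CUMS 2 and CUMS 3, while CUMS 1 lay below control 1 and control 3. Ugt2b35 read 18700, 21796 and 18149 in major depression, 20454, 19974 and 21636 in mild depression, and 18909, 18811 and 16598 in control. Here too the mild depression rats lay above every control, and CUMS 1 and CUMS 3 lay among the controls. The log2 differences were 0.20 (SE 0.12) for Ugt2b15 and 0.11 (SE 0.10) for Ugt2b35 in major depression, and 0.23 (SE 0.12) and 0.19 (SE 0.10) in mild depression. Limma's adjusted p was 0.772 and 0.870 in major depression and 0.782 for both in mild depression. Without control rat 3 the differences of Ugt2b15 were 0.21 in major depression and 0.24 in mild depression, and those of Ugt2b35 were 0.047 and 0.13. The major depression differences also leaned on CUMS 2, without which they were 0.073 for Ugt2b15 and 0.028 for Ugt2b35.

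Ugt2b10, whose human namesake conjugates nicotine, read 5230, 7808 and 7008 in major depression, 4590, 5893 and 7725 in mild depression, and 5051, 4878 and 6784 in control. The groups overlapped throughout, and the log2 differences were 0.26 (SE 0.21) in major depression and 0.11 (SE 0.21) in mild depression. Ugt2b34l1 read 325, 539 and 566 in major depression, 601, 421 and 670 in mild depression, and 297, 352 and 559 in control. Control rat 3 was the highest control for both, at the level of the CUMS rats. The log2 difference of Ugt2b34l1 was 0.25 (SE 0.28) in major depression and 0.51 (SE 0.28) in mild depression. Without control rat 3 it was 0.52 in major depression and 0.78 in mild depression, and without control rat 1 it was 0.062 and 0.32. The difference of Ugt2b10 without control rat 3 was 0.41 in major depression and 0.26 in mild depression.

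Ugt2a1, known in rats as an odorant-conjugating enzyme of the olfactory epithelium, was seen at a low signal. It read 245, 273 and 302 in major depression, 194, 233 and 396 in mild depression, and 158, 170 and 251 in control. Control 3 exceeded CUMS 1, CUMS 4 and CUMS 5, so both CUMS groups overlapped control. The log2 difference was 0.53 (SE 0.27; adjusted p = 0.760 by limma) in major depression and 0.47 (SE 0.27; adjusted p = 0.821) in mild depression. Leaving out control rat 3 gave 0.73 in major depression and 0.67 in mild depression. The 4 olfactory markers summed to 267.5 to 482.3 in major depression, 328.9 to 424.9 in mild depression and 386.7 to 430.3 in control, and 2 of the 4 passed the filter on low signal. That filter removed the dimmest 40% of the array, below a signal of 67.0 as a mean over the 9 rats on the log2 scale.

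A probe set of Ugt2b, 1387825_at, passed the filter narrowly, with 67.3, 81.3 and 97.8 in major depression, 80.1, 72.3 and 94.6 in mild depression, and 34.6, 86.4 and 58.5 in control. Its mean was 59.8 in control, under the cut-off of 67.0, and 82.2 over all CUMS rats, so it passed through its CUMS signals. Its differences, 0.54 and 0.55 with an SE of 0.37 each, had groups that overlapped. Leaving out control rat 3 gave 0.57 in major depression and 0.58 in mild depression, and without control rat 1, its lowest rat, 0.19 and 0.20. The remaining members, 2 of 11, did not pass and were not tested. Ugt2b7, whose human namesake conjugates opioids, read 27.7, 33.9 and 22.6 in major depression, 61.4, 63.0 and 36.9 in mild depression, and 51.5, 51.8 and 54.2 in control. It was the only member with a negative log2 difference in major depression, at -0.92 and with no overlap, at signals of this faint range. The other Ugt2b probe set, 1385247_at, lay between 12.9 and 25.4 in the CUMS rats and read 17.4, 34.6 and 0.858 in control, so that its difference rests on the floor of 1 set for control 3. On the linear scale its mean was lower in major depression (15.5) than in control (17.6).

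Counted over all 11 probe sets, 10 had a positive and 1 a negative difference in major depression, in mild depression and over all CUMS rats alike, each against the same 3 controls. The exception was Ugt2b7 each time. The 10 include the faint Ugt2b probe set whose difference rests on the floor set for control 3. Its linear mean was lower in major depression (15.5) than in control (17.6). The median log2 difference of the 9 single-gene probe sets was 0.26 in major depression, 0.47 in mild depression and 0.38 over all CUMS rats, and that of the 2 shared probe sets was 0.36, 0.61 and 0.49. Over all 31042 probe sets the median was -0.0013, -0.020 and -0.013, and 49.8%, 47.4% and 48.1% were higher. Without control rat 3, 9 of 11 were higher in major depression, 10 in mild depression and 9 over all CUMS rats.

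**Figure D3:**
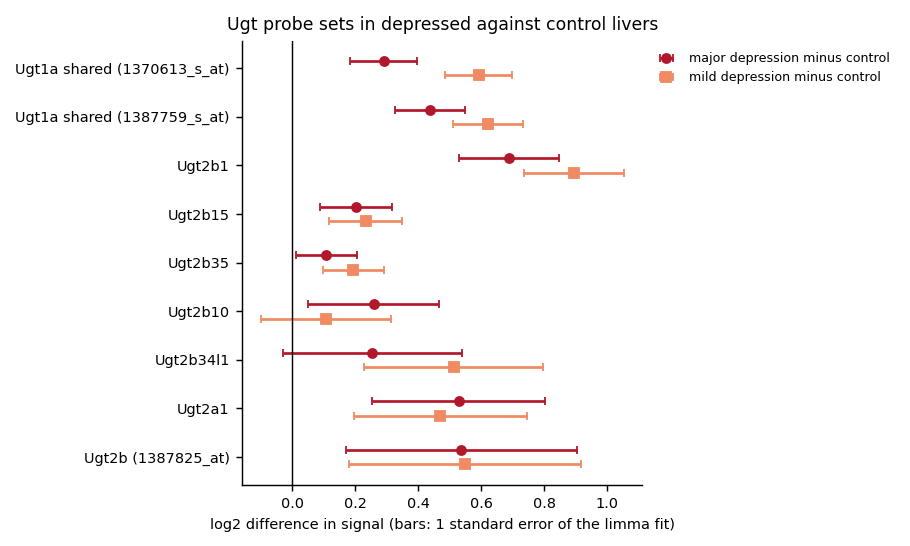
Log2 difference from control (x axis) of the 9 Ugt probe sets kept, in major depression (circles) and mild depression (squares), with bars of 1 standard error of the limma fit over 9 arrays. Both Ugt1a probe sets and Ugt2b1 lie farthest from 0 relative to their bars, up to 0.90 for Ugt2b1 in mild depression.

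No Ugt probe set passed limma's adjusted threshold of 0.05 in any comparison, nor did any other probe set (0% called in major depression, mild depression and all CUMS rats against control, and 0% in major against mild depression). At an unadjusted p under 0.05, 3 of the 9 kept were higher in major depression, against 2.59% of all probe sets kept, namely Ugt2b1 and the Ugt1a pair. These 3 were also past it in mild depression, against 2.73%, and over all CUMS rats, against 3.07%. Groups did not overlap, with CUMS higher, for 3 of 9 in major depression (5.3% of all kept), 5 of 9 in mild depression (5.34%) and 3 of 9 over all CUMS rats (1.52%). These members all lie in the top 5% of the array by mean signal. Of the 1553 probe sets there, 135, 292 and 76 had CUMS higher without overlap in the same comparisons. Without control rat 3 the Ugt counts were 5, 7 and 4 of 9, against 10.2%, 10.1% and 3.74% of all kept. The smallest p of a member ranked 37 of 18625 in major depression, 6 in mild depression and 8 over all CUMS rats. By the cut-offs the study used (a ratio of 1.5 or more, or of 0.5 or less, and p under 0.05 with neither adjustment nor signal filter), Ugt2b1 passed in major depression, where 1.96% of all probe sets did, and over all CUMS rats, where 2.44% did. In mild depression Ugt2b1 and both Ugt1a probe sets passed, with 2.06% of all.

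Bright probe sets as a class were shifted in mild depression. Among the 311 probe sets of highest mean signal, the range of Ugt2b35, Ugt2b15 and 1370613_s_at, 86.2% were higher in mild depression than in control (median log2 difference 0.11), 47.9% in major depression (median -0.0055) and 71.7% over all CUMS rats (median 0.050). Under quantile normalization, which gives every array the same distribution of signals, the mild depression differences were 0.46 for 1370613_s_at, 0.50 for 1387759_s_at and 0.81 for Ugt2b1. How much of the bright shift was left under it was not tested. Those of Ugt2b15 and Ugt2b35 were smaller under it, at 0.11 and 0.092, against 0.23 and 0.19 without it, and that of Ugt2b10 was 0.015, against 0.11. In major depression Ugt2b15 was at 0.18 and Ugt2b35 at 0.094 under it. The summed hepatocyte markers were likewise highest in mild depression, and their part was not tested.

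**Figure D4:**
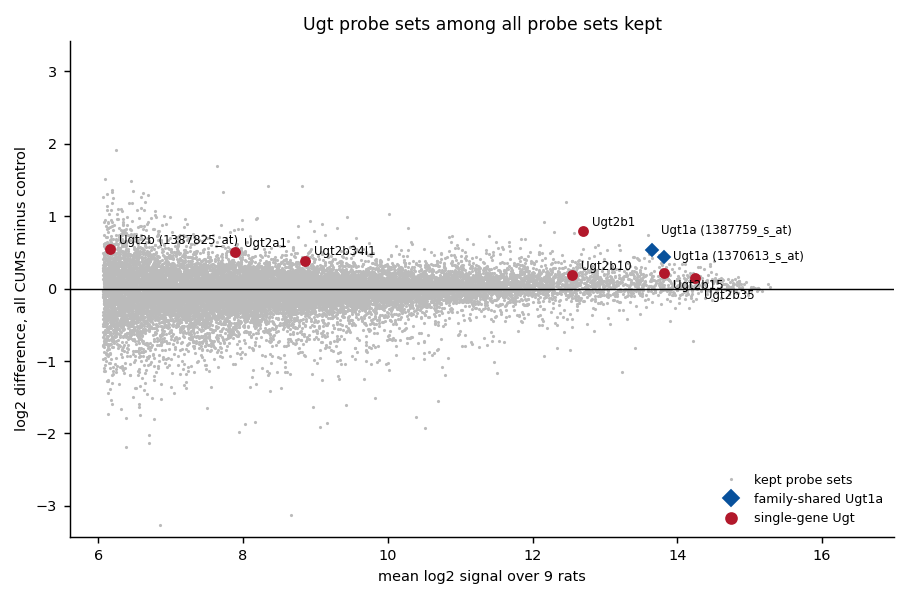
Log2 difference of all 6 CUMS rats minus 3 controls (y axis) against mean log2 signal over 9 rats (x axis) for the 18625 probe sets kept (grey), with single-gene Ugt probe sets as circles and the family-shared Ugt1a pair as diamonds. All 9 Ugt probe sets kept lie above 0, and Ugt2b1, at 0.79, lies near the upper edge of the probe sets of like signal. The faint Ugt2b probe set among the 9 passed the filter through its CUMS signals, so its place above 0 carries less weight.

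Major and mild depression livers were set side by side to ask whether the Ugt signals followed the symptom label. In major depression, 1370613_s_at was lower than in mild depression (log2 difference -0.30, SE 0.11, 0.812-fold), with no overlap and an unadjusted p of 0.0166, and limma's adjusted p was 0.9996. It was the only one of 9 kept at an unadjusted p under 0.05, against 2.85% of all kept in either direction. The other shared probe set differed by -0.18 (SE 0.11) and Ugt2b1 by -0.21 (SE 0.16), with overlapping groups and 95% intervals of -0.43 to 0.062 and -0.56 to 0.14. The 6 other probe sets kept had differences between -0.26 for Ugt2b34l1 and 0.15 for Ugt2b10. Of the brightest 311 probe sets, 8.04% were higher in major than in mild depression (median -0.11), so most shared the direction of 1370613_s_at. Under quantile normalization 1370613_s_at differed by -0.19 and 1387759_s_at by -0.078. The part of the bright shift in these differences was not tested.

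Between rats, the Ugt probe sets did not all follow each other. Over the 9 arrays, the log2 signal of Ugt2b1 correlated with the Ugt1a pair (r = 0.89 with 1370613_s_at and 0.93 with 1387759_s_at), and Ugt2b10 correlated with Ugt2a1 (r = 0.85) but hardly with 1370613_s_at (r = 0.09). These are descriptions over points that share arrays and groups. Outside the family, the genes most like Ugt2b1 were LOC102547042 (r = 0.96), Lmo4 and the bile acid-CoA ligase Slc27a5 (0.95 each), out of 14140 single-gene probe sets. Those most like 1370613_s_at were Etfa (0.95), Adi1 and Aldh1l1 (0.94 each), and those most like 1387759_s_at were Zfand6 (0.95), LOC102547042 and Tmem106b (0.94 each). For Ugt2b35 they were Aldh6a1 (0.98), Rdh7 and Myh1 (0.97 each), for Ugt2a1 Neu2 (0.97), Tm7sf2 (0.94) and Slc6a13 (0.93), and for Ugt2b15 Ndfip2 (0.93), Homez and Slc35c2 (0.90 each).

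The genes that make the cosubstrate UDP-glucuronic acid were listed with those that handle bilirubin, those that regulate Ugt genes and 3 further UDP-glycosyltransferases. Of 31 listed, 26 had a single-gene probe set and 25 were kept. None passed limma's adjusted threshold, and in major depression 12 were higher and 13 lower than in control. In mild depression 15 were higher and 10 lower. Of the 8 genes kept in the supply and transport list, 5 were higher in major depression and 6 in mild depression. At an unadjusted p under 0.05, 2 and 4 were higher, against 2.59% and 2.73% of all probe sets kept. That list also holds Gusb, which cleaves glucuronides and does not supply the cosubstrate. Gusb is 1 of the 5, 1 of the 6 and 1 of the 4. Of the 10 regulators kept, 1 was higher at that p in each CUMS group. Of the 7 bilirubin genes, 2 were higher and 5 lower in major depression, and 3 were higher and 4 lower in mild depression. At an unadjusted p under 0.05, 0 were higher in either CUMS group, and 1 was lower in mild depression. Of the 18625 probe sets kept, 1170 were past that p in mild depression in either direction, and 509 of these were higher. The further UDP-glycosyltransferases had 0 kept.

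Pgm1, which makes glucose 1-phosphate for UDP-glucose, read 3964, 4120 and 4005 in major depression, 4066, 3813 and 3308 in mild depression, and 3085, 3298 and 2816 in control. Like the Ugt1a pair and Ugt2b1, it lay higher in every CUMS rat than in every control (log2 difference 0.34 over all CUMS rats, SE 0.09, adjusted p = 0.468 by limma). Ugdh, which oxidises UDP-glucose to UDP-glucuronic acid, read 4889, 4369 and 4520 in major depression, 5707, 5453 and 5392 in mild depression, and 4610, 4354 and 4778 in control. The mild depression rats lay above all others, and the difference from control was 0.27 (SE 0.09) in mild depression and 0.0033 (SE 0.09) in major depression. Ugp2, which makes UDP-glucose, and Gusb, the enzyme that cleaves glucuronides, also had mild depression rats above every control, with differences of 0.45 (SE 0.18) and 0.31 (SE 0.12). Entpd4, a Golgi nucleotidase, had major depression rats above every control, with a difference of 0.29 (SE 0.13).

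Among the bilirubin genes, Abcc3, an exporter of glucuronides into the blood, read 95.4, 50.2 and 128 in major depression, 102, 24.6 and 55.6 in mild depression, and 125, 128 and 313 in control. Mild depression rats lay below every control, with a log2 difference of -1.73 (SE 0.56, adjusted p = 0.744 by limma). Control rat 3 was again the highest. The other 6 bilirubin genes overlapped between each CUMS group and control.

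Of the receptors known to act on Ugt genes, Nr1i3 (the constitutive androstane receptor) read 518, 744 and 766 in major depression, 365, 619 and 720 in mild depression, and 384, 212 and 388 in control. Major depression rats lay above every control, and CUMS 4 lay among the controls. A relation between Nr1i3 and the Ugt signals was not tested. The difference was 1.07 (SE 0.30) in major depression and 0.79 (SE 0.30) in mild depression, with adjusted p of 0.637 and 0.757 by limma. Nr1i2, the pregnane X receptor, differed by 0.22 (SE 0.16) and 0.01 (SE 0.16), and Ahr, the Ah receptor, by 0.57 (SE 0.47) and 0.52 (SE 0.47), with overlapping groups.

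**Figure D5:**
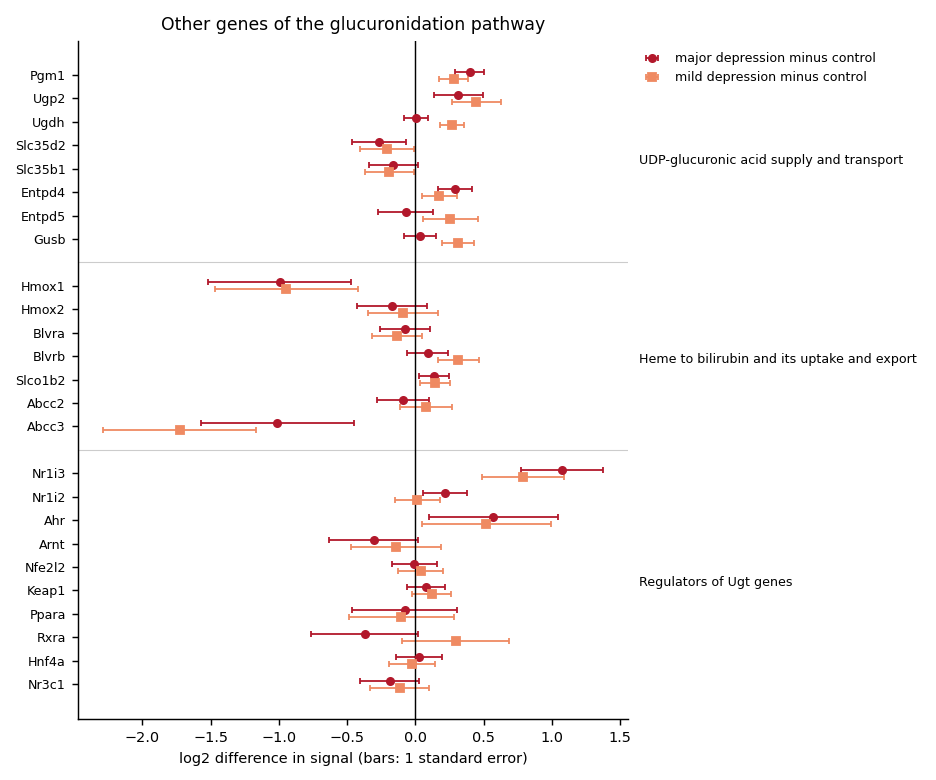
Log2 difference from control (x axis) of the 25 pathway genes kept, in major depression (circles) and mild depression (squares), with bars of 1 standard error of the limma fit. Genes are grouped by role. Nr1i3 lies at 1.07 in major depression and Abcc3 at -1.73 in mild depression, and most others lie within 0.5 of 0.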

How the data were processed

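The authors deposited 1 table of MAS 5.0 signal intensity values on a linear scale for 9 rat liver arrays (GeneChip 3' IVT labelling, 1 colour), each array scaled to a common trimmed mean. The members, gene lists and tests were chosen with earlier results of these data known. Here the 57 Affymetrix control probe sets were dropped, 586 values under 1 were raised to 1 before the log2 step, and the 18625 probe sets of highest mean log2 value among 31042 (60%) were tested. All 3 groups were fitted together with limma 3.58.1 (trended eBayes, R 4.3.3), p-values were adjusted by Benjamini-Hochberg over all kept probe sets, and an adjusted p under 0.05 was called. With 3 rats a group, the number of arrays limits the precision. Limma's p-values set a group difference against the spread of rats within groups, pooled over the 3 groups and moderated over the kept probe sets. The platform annotation, which can be old, gives 20826 probe sets 1 symbol, 436 several and 9780 none; no gene was named from a probe set with several symbols except the Ugt1a family as a whole. Every member was named; other genes were named where their groups did not overlap, where they were Nr1i3, Nr1i2 or Ahr, or as the 3 genes most correlated with a member. The fit was tested on simulated data. Alternatives were quantile normalization, median centring, adding 50 to the signal, other filters, no variance trend, array weights, only the groups compared, leaving out each rat, a replicate block and the thresholds of the study. Counts without control rat 3 were added after the data had been seen. Scan dates or batches are not given in the sources used here. Promoter sequences came from RefSeq, build GRCr8.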

Additional observations from a re-analysis of the deposited data

Results flagged for a closer look

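Ugt2b1 in CUMS rat 6 stood far above the other 5 CUMS rats. It read 10476 there, with 6904 to 8050 in the others, and the gap to its nearest neighbour was 0.679 of the whole range of the 6. Chance sets apart a sample this way in about 1 in 20 groups of samples. All 11 Ugt probe sets were screened, on linear signals over both CUMS groups together, so 1 flag among them is less rare than that rate. CUMS 6 was also the highest rat on both Ugt1a probe sets and for Ugt2a1 and Ugt2b34l1, at 19517, 17738, 396 and 670. Without CUMS 6, the log2 difference of Ugt2b1 in major against mild depression was -0.06, against -0.21 with it.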

How the results depend on the processing

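No Ugt probe set was called at an adjusted p under 0.05 under any alternative with limma, and the smallest adjusted p was 0.179. Of 617 alternative values of single probe sets, 11 turned their sign. In major against mild depression these were Ugt2b35 at 0.0026 and Ugt2b15 at 0.069 under quantile normalization and Ugt2a1 at -0.035 with array weights. Leaving out 1 rat at a time turned Ugt2b (1387825_at), with values of -0.15 to 0.12, Ugt2b15, -0.16 to 0.071, Ugt2a1, -0.16 to 0.36, and Ugt2b10, -0.034 to 0.34, in that comparison, and Ugt2b10 in mild depression against control, -0.083 to 0.29, where CUMS 6 set the lowest value.

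The median log2 difference of the single-gene probe sets moved in mild depression to 0.56 under quantile normalization, 0.53 after median centring, 0.23 with 50 added and 0.58 with array weights. Over all CUMS rats it moved to 0.44 after median centring, 0.22 with 50 added and 0.44 with array weights, and in major depression to 0.31 after median centring. Under quantile normalization the shared pair gave 0.48 in mild depression and -0.13 in major against mild depression, where the single-gene median was -0.026. The thresholds of the study passed 1, 3 and 1 Ugt probe sets in major depression, mild depression and all CUMS rats.

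With 1 rat left out, the single-gene median was 0.14 (without CUMS 2) to 0.51 (without CUMS 1) in major depression, 0.25 (without CUMS 6) to 0.55 in mild depression, 0.20 (without control 1) to 0.51 over all CUMS rats and -0.17 to -0.0031 (without CUMS 1) in major against mild depression. For the shared pair the ranges were 0.30 to 0.41, 0.52 to 0.68, 0.42 to 0.52 and -0.32 to -0.16. The cause was not tested. Deviations of CUMS and control rats of the same number, 1 to 3, had correlations of 0.003, -0.049 and 0.140. Rats of different number were not compared, so these values cannot decide whether the numbers pair the rats. A replicate block for rats 1 to 3 of major depression and control called 0 Ugt probe sets, with an adjusted p of 0.391 for Ugt2b1.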
